A study of Homo sapiens with 12 samples.

Results

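TNF, LTA and LTB are 3 neighbouring genes on chromosome 6 that encode tumor necrosis factor, lymphotoxin alpha and lymphotoxin beta. They were taken by gene symbol and chromosome, not by their values, and make up 3 of the 60675 genes in the deposited table. All 3 passed the filter on low counts. The mRNA of each was followed in U-2932 cells, an established line of diffuse large B cell lymphoma, carrying either Roquin2(Y691F) or Roquin2(WT) as a stable transgene. Roquin2 is the product of RC3H2. It binds certain stem-loops in the 3′ UTR of mRNAs and speeds their decay, and in the Y691F form one tyrosine is replaced by phenylalanine. The 4 groups were Y691F with IgM, Y691F untreated, WT with IgM and WT untreated, each with 3 libraries, which the submitters call independent biological replicates. IgM stands for a F(ab')2 antibody fragment against IgM, which crosslinks the B cell receptor, given at 10 µg/ml for 12 hours. The sources used here do not give the number of lines or clones per Roquin2 form or the promoter of the transgene. Cells without a transgene were not among the 4 groups.

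TNF and lymphotoxin alpha are cytokines of the TNF superfamily that form homotrimers and act through the receptors encoded by TNFRSF1A and TNFRSF1B. Lymphotoxin beta is a membrane protein that holds lymphotoxin alpha at the cell surface in a mixed trimer, which binds the receptor encoded by LTBR, and this surface form on B cells helps to organise lymphoid follicles. TNF mRNA is short-lived: AU-rich elements and a constitutive decay element in its 3′ UTR recruit decay factors, and the stem-loop of that decay element is bound by the Roquin proteins.

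In the Ensembl annotation of the file (GRCh38, plus or minus strand, coordinates from 1), LTA (ENSG00000226979) lies at 31572054 to 31574324 on the plus strand and TNF (ENSG00000232810) at 31575567 to 31578336 on the plus strand. LTB (ENSG00000227507) lies at 31580525 to 31582522 on the minus strand, so that TNF and LTB point towards each other. The 3 genes fill 10469 bp, with 1242 bp between LTA and TNF and 2188 bp between TNF and LTB. No other gene row overlaps this span. The 3′ UTRs differ in the elements that decay factors bind, and they are shown because the study varied a protein that binds one of them. A stem-loop of the constitutive decay type was searched as 5 base pairs closed by a loop of 3 bases, pyrimidine, purine and any base. In GENCODE release 29, the TNF 3′ UTR of 799 bp (ENST00000449264.2) held 2 matches to this shape, both on chromosome 6, plus strand. The first lies at chr6:31578103-31578125, 566 bases after the stop codon, and the second at chr6:31578259-31578281, 722 bases after it. Capitals mark the stem and loop.
TNF first stem-loop: acatgTTTTCCGTGAAAAcggag
TNF second stem-loop: ctctgCTCCCCAGGGGAGttgtg

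The same 3′ UTR of TNF held 5 copies of the AU-rich nonamer TTATTTATT, overlapping copies included, and 9 of the pentamer ATTTA. The 9618 human protein-coding 3′ UTRs of this length or more were searched in their first 799 bases only. In that part 27.2% held a stem-loop match, 4.06% held the nonamer and 0.218% held 9 or more pentamers. The LTA 3′ UTR of 631 bp (ENST00000454783.5) held no stem-loop match, 1 nonamer and 3 pentamers. Of the 10800 human 3′ UTRs of at least its length, 22.8% held a stem-loop match and 3.38% the nonamer in their first 631 bases. In that part 18.4% held 3 or more pentamers. The LTB 3′ UTR of 154 bp (ENST00000429299.2) held none of these elements, as is common at this length. Of the 16608 human 3′ UTRs of at least its length, few held them in their first 154 bases. There 5.55% held a stem-loop match, 0.686% the nonamer and 19.8% a pentamer. The AU-rich stretches with the most nonamers, in the TNF 3′ UTR at chr6:31577997-31578026 and in the LTA 3′ UTR at chr6:31574055-31574084, both plus strand, are given with the nonamers in capitals. Such matches are letters in a sequence and were not measured for binding here.
TNF AU-rich stretch: tgaTTATTTATTATTTATTTATTATTTATT
LTA AU-rich stretch: tatgaaggcaaaaaaattaaaTTATTTATT

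The 12 libraries held 16465393 to 21478790 counts, and 15112 of the genes passed the filter and were tested. Levels of one gene are given as CPM, counts scaled to a common library size with TMM factors, and levels between genes as the authors' deposited RPKM, which corrects for length. The biological coefficient of variation was 2.51%, and the chi-square over degrees of freedom between 2 replicates of a group was 1.43 to 2.42, where counting error alone gives about 1. The p-values rest on this spread between libraries of the same cells and cannot speak for other lines carrying the same Roquin2 form. RC3H2 averaged 206 ± 1.79 CPM in Y691F with IgM and 121 ± 1.80 CPM in WT with IgM (log2 0.77). Untreated it averaged 209 ± 0.880 CPM in Y691F and 111 ± 1.08 CPM in WT (SD, n = 3; log2 0.92), so the Roquin2 form and the RC3H2 level differed together and their parts in any difference below cannot be told apart. The sources used here do not say whether reads of the transgene were counted on RC3H2, so these values may stand for transgene and endogenous mRNA together or for endogenous mRNA alone. The B cell markers MS4A1, CD79A, CD79B, PAX5 and CD22 were among the tested genes. T and NK markers were largely absent: CD3D, CD2, NKG7 and NCR1 had no read, 2 of 9 were tested, and the summed level of the list, mostly TRAC, was 23.5 to 25.1 CPM in Y691F with IgM, 7.96 to 8.56 CPM in Y691F untreated, 20.3 to 21.0 CPM in WT with IgM and 8.74 to 8.95 CPM in WT untreated. This sum moved with IgM, and its part in the IgM responses below was not tested. Summed myeloid markers stayed within 0.834 to 1.71 CPM in all libraries. Summed fibroblast and epithelial markers, of which 4 of 8 were tested, stayed within 20.7 to 27.1 CPM. This sum was mostly EPCAM, which averaged 21.3 CPM over all libraries. In RNA from whole cultures, fewer cells of a type and less RNA per cell cannot be told apart.

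With IgM, TNF and LTA were the members that set Y691F apart from WT: LTA was 3.41-fold lower and TNF 2.58-fold lower in Y691F, whereas LTB was 1.25-fold lower. TNF, the best known product of the locus, had 479, 448 and 370 counts in the Y691F libraries with IgM, or 26.6, 24.0 and 23.4 CPM. In WT with IgM it had 1060, 1159 and 1023 counts, or 63.5, 62.6 and 65.2 CPM. All Y691F libraries lay far below all WT libraries, and the log2 change was -1.36 (SE 0.0540, adjusted p = 6.28e-38). LTA, the secreted lymphotoxin, had 587, 601 and 515 counts in Y691F with IgM (32.6, 32.2 and 32.6 CPM), against 1944, 1964 and 1722 counts in WT with IgM (116, 106 and 110 CPM). Here too the groups were widely separated, and the change of -1.77 (SE 0.0460, adjusted p = 8.87e-51) ranked LTA at place 11 of all tested genes by p. LTB, the membrane anchor, had 289, 310 and 265 counts in Y691F with IgM (16.1, 16.6 and 16.8 CPM), against 343, 374 and 335 counts in WT with IgM (20.5, 20.2 and 21.4 CPM). The LTB libraries of both forms lay close together without overlap, with a change of -0.33 (SE 0.0697, adjusted p = 5.98e-05). In this comparison 3 of 3 members were called lower, where 20.2% of all tested genes were called lower and 21.9% higher.

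**Figure D1:**
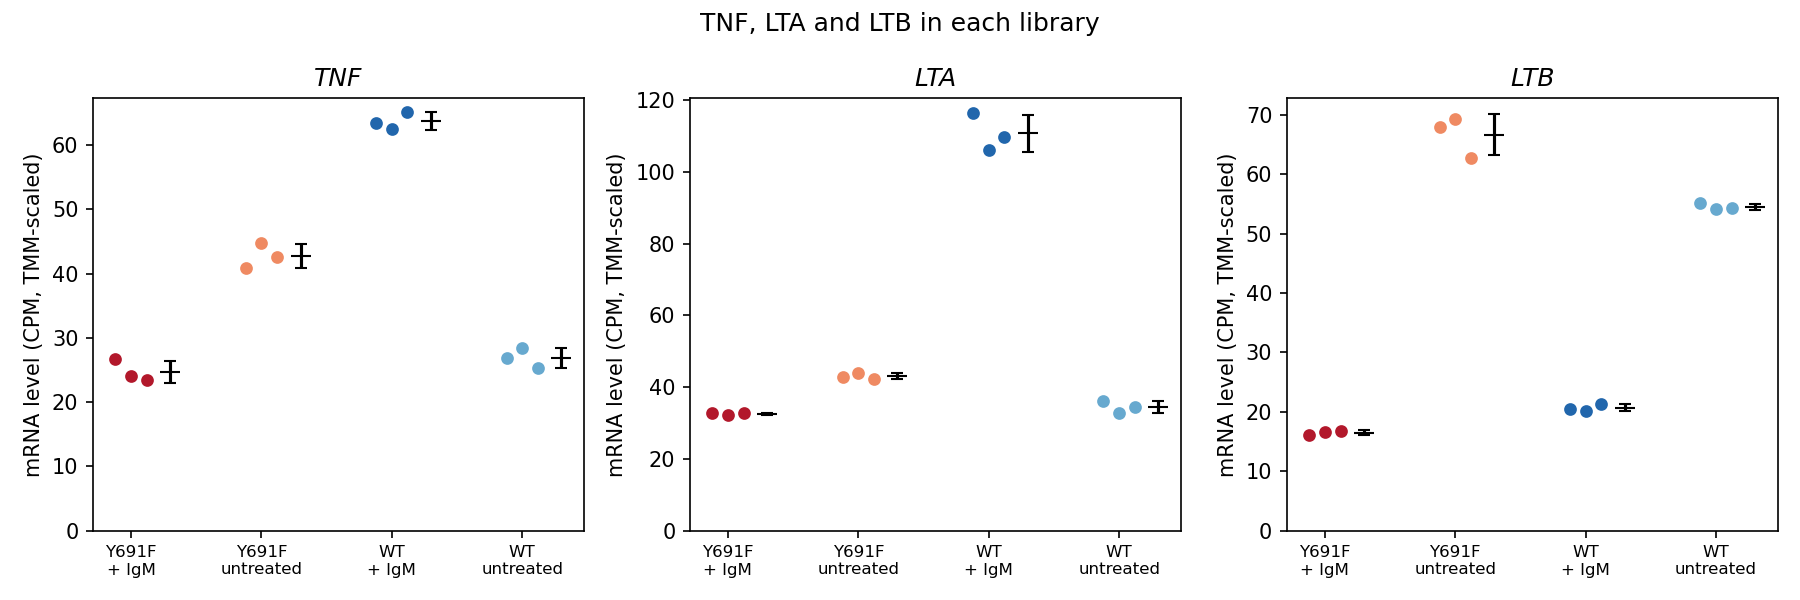
Level of TNF, LTA and LTB in each library (y axis, CPM on TMM-scaled library totals, from 0) by group (x axis); each point is a library and the black bars are the mean ± SD of 3 libraries. TNF and LTA are highest in WT with IgM, at 62.6 to 65.2 and 106 to 116 CPM, while LTB is highest in the untreated cells of both forms.

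Without IgM the direction was the opposite, and the members were higher in Y691F. TNF stood at 40.9, 44.7 and 42.5 CPM in untreated Y691F (890, 864 and 845 counts), against 26.9, 28.3 and 25.4 CPM in untreated WT (507, 637 and 442 counts). Every Y691F library lay above every WT library, and TNF was 1.58-fold higher (log2 0.66, SE 0.0539, adjusted p = 1.71e-18). LTA stood at 42.9, 44.0 and 42.3 CPM in untreated Y691F (932, 849 and 840 counts), against 36.0, 32.7 and 34.4 CPM in untreated WT (679, 735 and 599 counts). The groups were separated by a smaller step than for TNF (log2 0.33, SE 0.0499, adjusted p = 6.66e-08). LTB stood at 68.0, 69.3 and 62.8 CPM in untreated Y691F (1478, 1339 and 1247 counts), against 55.1, 54.2 and 54.3 CPM in untreated WT (1040, 1217 and 946 counts). It was 1.22-fold higher, with the Y691F libraries more spread than those of WT (log2 0.29, SE 0.0438, adjusted p = 4.97e-08). Thus 3 of 3 members were called higher, where 15.1% of tested genes were called higher and 16.1% lower.

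IgM lowered all 3 members in Y691F cells, whereas in WT cells TNF and LTA rose and LTB fell. In Y691F, TNF averaged 24.7 ± 1.69 CPM with IgM and 42.7 ± 1.90 CPM untreated (SD, n = 3 each), a fall of 1.73-fold (log2 -0.79, SE 0.0560, adjusted p = 1.05e-22). LTA averaged 32.5 ± 0.231 CPM with IgM and 43.0 ± 0.845 CPM untreated in Y691F (log2 -0.41, SE 0.0515, adjusted p = 3.68e-11). LTB averaged 16.5 ± 0.382 CPM with IgM and 66.7 ± 3.46 CPM untreated in Y691F, a fall of 4.05-fold (log2 -2.02, SE 0.0554, adjusted p = 1.90e-50). The call of 3 of 3 members as lower in Y691F stood against 38.7% of tested genes called lower and 37.1% called higher. In WT, TNF ran from 62.6 to 65.2 CPM with IgM and from 25.4 to 28.3 CPM untreated, and IgM raised TNF 2.36-fold (log2 1.24, SE 0.0520, adjusted p = 2.35e-37) and LTA 3.23-fold (log2 1.69, SE 0.0447, adjusted p = 9.20e-52). LTB fell 2.64-fold in the same cells (log2 -1.40, SE 0.0551, adjusted p = 3.30e-39). IgM changed much of the transcriptome in WT, with 38.4% of tested genes called higher and 38.5% lower, so that 2 members called higher and 1 lower is near that background. Scaling by library totals alone moved the median of all tested genes by -0.17 for IgM in Y691F and by -0.13 for IgM in WT, and the members kept these directions.

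The difference of both IgM responses, Y691F minus WT, was tested as the interaction. It was -2.10 for LTA (SE 0.0683, adjusted p = 5.29e-43), place 4 of 15112 genes by p, and -2.03 for TNF (SE 0.0764, adjusted p = 1.28e-38), place 8. For LTB it was -0.62 (SE 0.0823, adjusted p = 2.14e-09), place 485, since LTB fell in both forms and fell further in Y691F. All 3 members were called lower in the interaction, a call made for 11.0% of tested genes, while 14.7% were called higher.

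**Figure D2:**
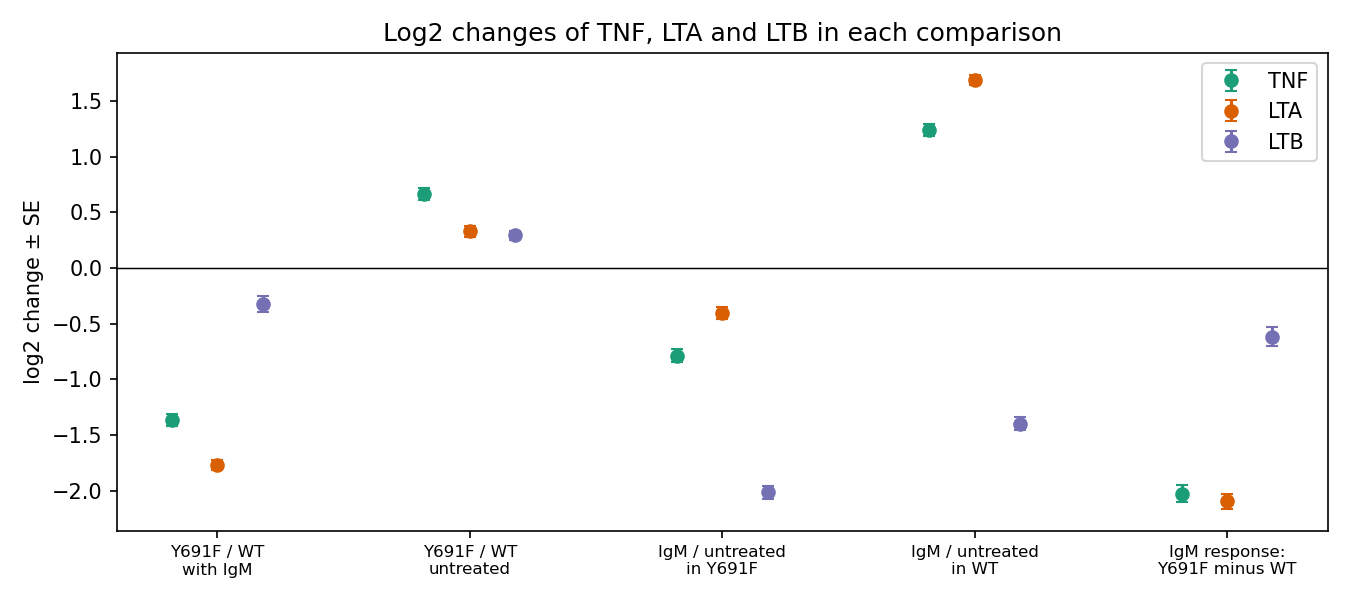
Log2 change ± SE (y axis) of TNF, LTA and LTB in the 4 comparisons of groups and in the difference of the IgM responses (x axis). TNF and LTA are below 0 for IgM in Y691F, at -0.79 and -0.41, and above 0 for IgM in WT, at 1.24 and 1.69, while LTB is below 0 in both.

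Ordered by level, TNF was highest in WT with IgM, followed by Y691F untreated. Its other groups were neighbours that overlapped, at 23.4 to 26.6 CPM in Y691F with IgM and 25.4 to 28.3 CPM in WT untreated. LTA had the same order, and its lowest groups were near each other without overlap, at 32.2 to 32.6 CPM in Y691F with IgM and 32.7 to 36.0 CPM in WT untreated. The order of LTB was another one: Y691F untreated was highest, then WT untreated, WT with IgM and Y691F with IgM, and no neighbouring groups overlapped. The coefficient of variation of CPM between replicates was 0.712% to 6.85% over the 3 members and 4 groups, beside an error from counting alone of 2.31% to 5.89%.

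Because LTA and LTB products join in the surface trimer, their mRNAs were also compared within each library, which needs no scaling between libraries. Per length, LTB against LTA in RPKM was 0.557, 0.584 and 0.582 in Y691F with IgM and 1.79, 1.78 and 1.68 in Y691F untreated. It was 0.200, 0.215 and 0.220 in WT with IgM and 1.73, 1.87 and 1.79 in WT untreated. LTB was thus the more abundant mRNA of the pair in all untreated libraries and the less abundant in all IgM libraries, most so in WT. On the log2 scale of the count ratio the IgM response was -1.61 in Y691F and -3.09 in WT, with no overlap of libraries in either. With IgM, Y691F exceeded WT by 1.44 on this scale, again without overlap. Untreated, the forms overlapped and differed by -0.036 (exact permutation test, 2-sided, p = 0.5).

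The ratio of LTA to TNF moved less. In RPKM it was 1.18, 1.29 and 1.34 in Y691F with IgM and 1.01, 0.948 and 0.959 in Y691F untreated, against 1.77, 1.64 and 1.62 in WT with IgM and 1.29, 1.11 and 1.31 in WT untreated. IgM shifted the log2 ratio towards LTA by 0.39 in Y691F and 0.44 in WT, and the difference of Y691F from WT was -0.40 with IgM and -0.34 untreated. None of these 4 comparisons had overlapping libraries. For LTB against TNF the log2 differences were 1.04 for Y691F against WT with IgM, -0.38 untreated, -1.22 for IgM in Y691F and -2.65 for IgM in WT. Of the 12 ratio comparisons, 11 showed no overlap, and each of these had an exact 2-sided p of 0.1, the smallest that 3 against 3 libraries allow (Benjamini-Hochberg adjusted p = 0.109).

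The composition of the locus output changed accordingly. Of the summed RPKM of the 3 genes, LTB made up 24.3% ± 0.996 in Y691F with IgM and 46.3% ± 1.15 in Y691F untreated, and 11.7% ± 0.349 in WT with IgM and 49.8% ± 0.461 in WT untreated (SD, n = 3 each). LTA made up 42.3% ± 0.684, 26.4% ± 0.410, 55.3% ± 1.20 and 27.7% ± 1.07 in the same order of groups. The TNF share was close in both forms with IgM, at 33.3% ± 1.67 in Y691F and 33.0% ± 0.857 in WT. The summed RPKM itself was 34.2 ± 0.415 in Y691F with IgM and 79.8 ± 3.27 in Y691F untreated, against 89.4 ± 2.07 in WT with IgM and 60.7 ± 0.564 in WT untreated. Y691F cells with IgM thus had the lowest summed RPKM of the locus and WT cells with IgM the highest. The RPKM was used as deposited, without the TMM factors that scale the CPM. The size of these steps between groups therefore differs from that in CPM.

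**Figure D3:**
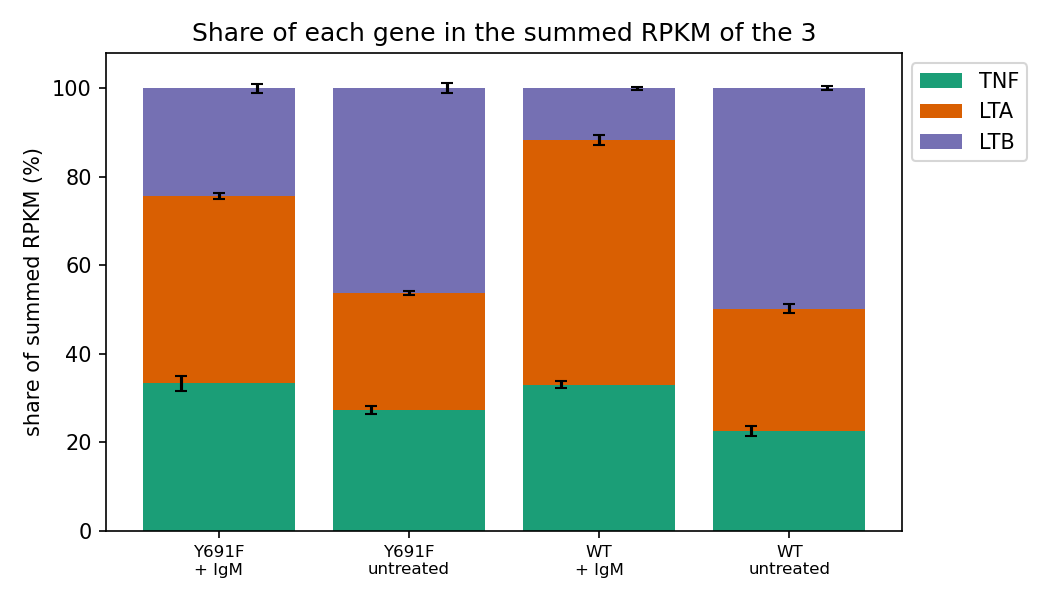
Share of TNF, LTA and LTB in the summed RPKM of the 3 genes (y axis, percent) by group (x axis), as stacked means of 3 libraries with SD bars for each share drawn at its upper edge. LTB takes 24.3% with IgM and 46.3% untreated in Y691F, and 11.7% with IgM and 49.8% untreated in WT.

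The genes next to the locus gave a view of whether the whole region moved. Within 100 kb on each side there were 30 other gene rows, of which 13 were tested. For Y691F against WT with IgM, 0 of 13 were called higher and 1 lower, DDX39B, which encodes an RNA helicase of mRNA export and splicing, at -0.10 (311 ± 11.1 CPM in Y691F, 334 ± 1.57 CPM in WT, adjusted p = 0.00727). The median log2 change of the neighbours was 0.030, beside -0.0049 over all tested genes. Of all tested genes, 21.9% were called higher and 20.2% lower with IgM, and 15.1% and 16.1% untreated. Untreated, 0 of 13 were higher and 2 lower, PRRC2A at -0.073 (adjusted p = 0.0307) and MICB, a ligand of the NKG2D receptor, at -0.16 (adjusted p = 0.0200). In the interaction 1 of 13 was called, PRRC2A at 0.13 (adjusted p = 0.00521), opposite in sign to TNF, LTA and LTB. The interaction was called higher for 14.7% and lower for 11.0% of all tested genes. LST1, the nearest tested gene beyond LTB, had 1 to 5 counts in Y691F with IgM and 4 to 6 in WT with IgM, too few for a difference to be detectable at this depth (log2 -1.10, SE 0.637, adjusted p = 0.161).

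For IgM in Y691F, 6 of 13 neighbours were called higher and 4 lower, beside 37.1% and 38.7% of all tested genes. For IgM in WT, 7 of 13 were called higher and 4 lower, beside 38.4% and 38.5%, so both counts are near the background. DDX39B rose by 0.84 in Y691F and by 0.89 in WT. NFKBIL1, the gene beyond LTA, averaged 7.29 ± 0.919 CPM with IgM and 9.69 ± 0.311 CPM untreated in Y691F (log2 -0.41, adjusted p = 1.85e-04), and 7.67 ± 0.582 CPM with IgM and 10.7 ± 0.220 CPM untreated in WT (log2 -0.48, adjusted p = 1.03e-05).

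**Figure D4:**
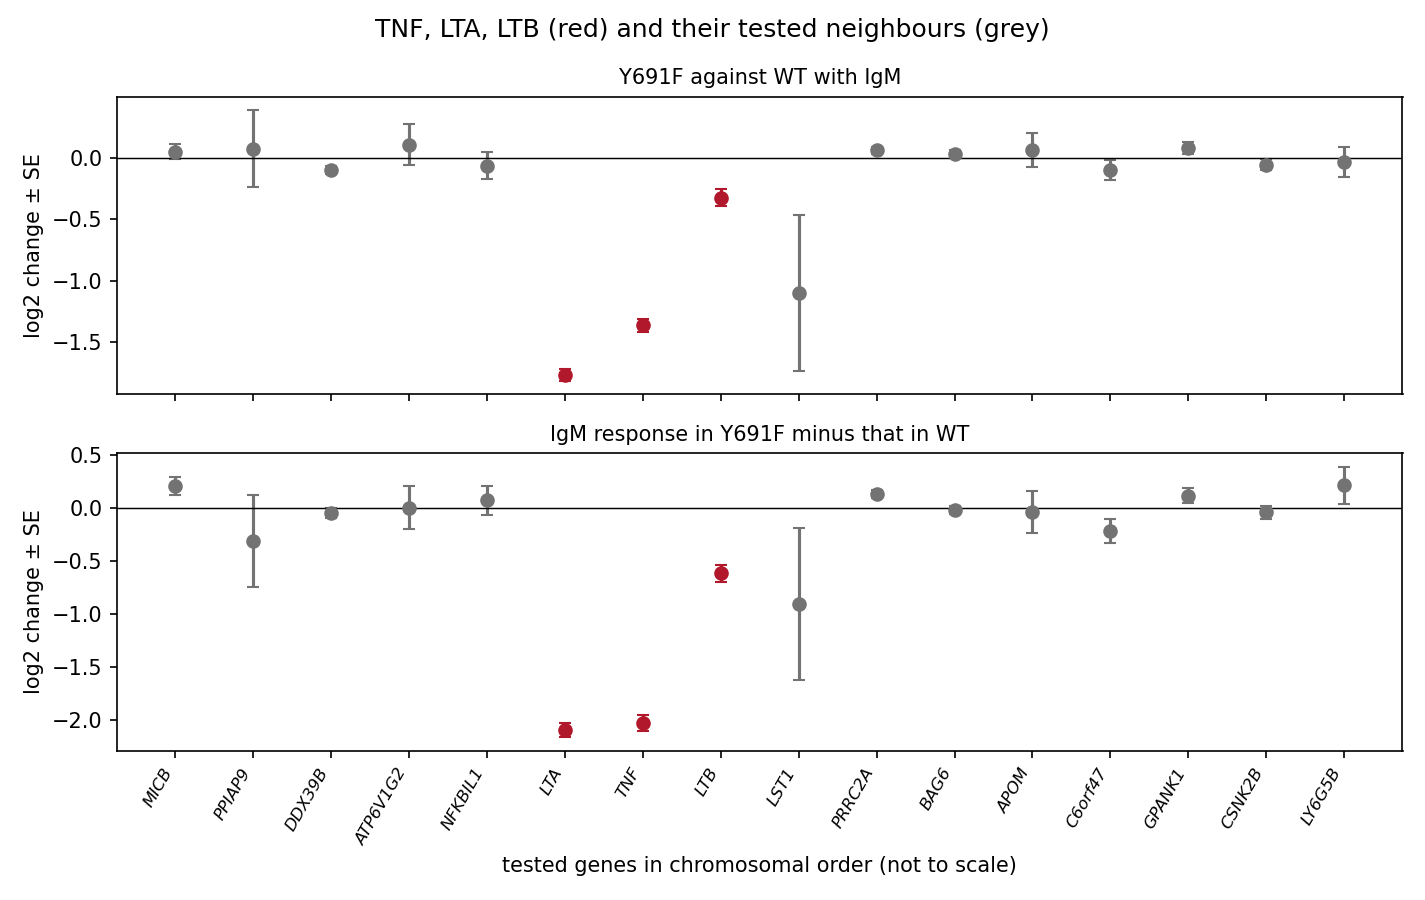
Log2 change ± SE (y axis) for Y691F against WT with IgM (upper panel) and for the difference of the IgM responses (lower panel) of TNF, LTA and LTB (red) and the 13 tested neighbours (grey), in chromosomal order and not to scale. The red points of LTA and TNF lie at -1.77 and -1.36 in the upper panel, while DDX39B at -0.10 is the one neighbour called there; LST1 has few counts and a wide SE.

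The sequence before each start was set beside these changes, since LTB went against TNF and LTA for IgM in WT. In the other comparisons all members had the same sign. A link of these sequences to the changes was not tested. RefSeq (GRCh38.p14) lists 1 start for TNF and 2 each for LTA and LTB, and the 250 bp before each were searched on both strands. The motifs were the kB consensus (GGGRNNYYCC), NFAT (GGAAA, which can lie inside a kB match), AP-1 (TGANTCA), a CRE-like motif (TGANNTCA), EGR (GCGNGGGCG) and SP1 (GGGCGG). R stands for a purine, Y for a pyrimidine and N for any base. Sites that differ from these letters or lie further upstream were not counted, so no match does not mean no site. The TNF window, chr6:31575315-31575564 on the plus strand, is printed with NFAT and CRE-like matches in capitals. It held 3 NFAT, 1 CRE-like, 1 EGR and 2 SP1 matches, 1 of the SP1 matches overlapping the EGR match, and none of the kB consensus or AP-1 letters. Of 35116 human windows of this length, 55.7% hold NFAT letters, 10.1% the CRE-like letters, 8.42% EGR letters and 42.6% SP1 letters.
TNF promoter: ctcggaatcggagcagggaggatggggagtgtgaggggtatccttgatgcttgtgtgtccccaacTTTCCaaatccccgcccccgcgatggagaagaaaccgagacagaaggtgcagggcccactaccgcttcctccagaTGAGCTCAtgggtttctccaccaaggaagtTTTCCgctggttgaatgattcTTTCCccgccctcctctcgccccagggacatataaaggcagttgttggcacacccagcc

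The kB consensus, which 9.96% of windows hold, was found before LTA and before LTB. Before the downstream start of LTA, 2 overlapping matches lie within chr6:31572176-31572204 on the plus strand. Before LTB, 1 match lies within chr6:31582493-31582520, printed on the minus strand, with an NFAT match inside it. Both sites are within the gene spans that the file gives for LTA and LTB. The window before the upstream LTA start held no kB match. Each LTA window held 2 NFAT matches, and the downstream one also held 1 SP1 match. Before LTB the NFAT match inside the kB site was the only match to another motif. The windows of LTA and LTB held no AP-1, CRE-like or EGR letters. Capitals mark the kB and NFAT letters, and a match says nothing of whether a factor was bound in these cells.
LTA kB site: ctaagccctGGGGGCTTCCCcgggcccca
LTB kB site: ggggtgtgcGGAAAGTCCCagccaggtg

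Receptors for these cytokines moved in their own ways. TNFRSF1A, the receptor with a death domain, had 4.50, 3.65 and 2.85 CPM in Y691F with IgM and 15.3, 14.7 and 14.9 CPM in Y691F untreated, against 4.37, 4.05 and 3.51 CPM in WT with IgM and 14.8, 15.6 and 15.8 CPM in WT untreated. It fell with IgM in both forms, by 2.01 in Y691F (adjusted p = 4.35e-30) and by 1.95 in WT (adjusted p = 2.06e-29) on the log2 scale, and the forms overlapped in either condition. TNFRSF1B, the second TNF receptor, had 183, 186 and 187 CPM in Y691F with IgM and 28.0, 30.9 and 29.1 CPM in Y691F untreated, against 59.3, 66.9 and 61.7 CPM in WT with IgM and 10.1, 7.88 and 7.97 CPM in WT untreated. It was higher in Y691F with IgM (log2 1.56, adjusted p = 3.79e-49) and untreated (1.76, adjusted p = 4.26e-35), and it rose with IgM by 2.66 in Y691F and 2.86 in WT. The interaction was not called for either (TNFRSF1B -0.20, adjusted p = 0.0914; TNFRSF1A -0.069, adjusted p = 0.824), which does not show that the responses were alike.

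TNFRSF14 encodes HVEM, a receptor of LIGHT and of lymphotoxin alpha, and had 13.7, 12.7 and 11.7 CPM in Y691F with IgM and 7.82, 5.54 and 6.80 CPM in Y691F untreated. It had 86.4, 83.7 and 82.3 CPM in WT with IgM and 5.78, 6.36 and 6.20 CPM in WT untreated, so the untreated groups overlapped and WT with IgM stood far above all others. The change for Y691F against WT with IgM was -2.72 (SE 0.0625, adjusted p = 5.82e-55) and the interaction -2.87 (SE 0.130, adjusted p = 5.11e-33). LTBR, the receptor of the surface lymphotoxin trimer, was not tested, since no library held more than 2 counts. Of the 4 receptors on the list, 3 were tested, and for Y691F against WT with IgM 1 was called higher, 1 lower and 1 was not called. Of all tested genes, 21.9% were called higher and 20.2% lower.

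**Figure D5:**
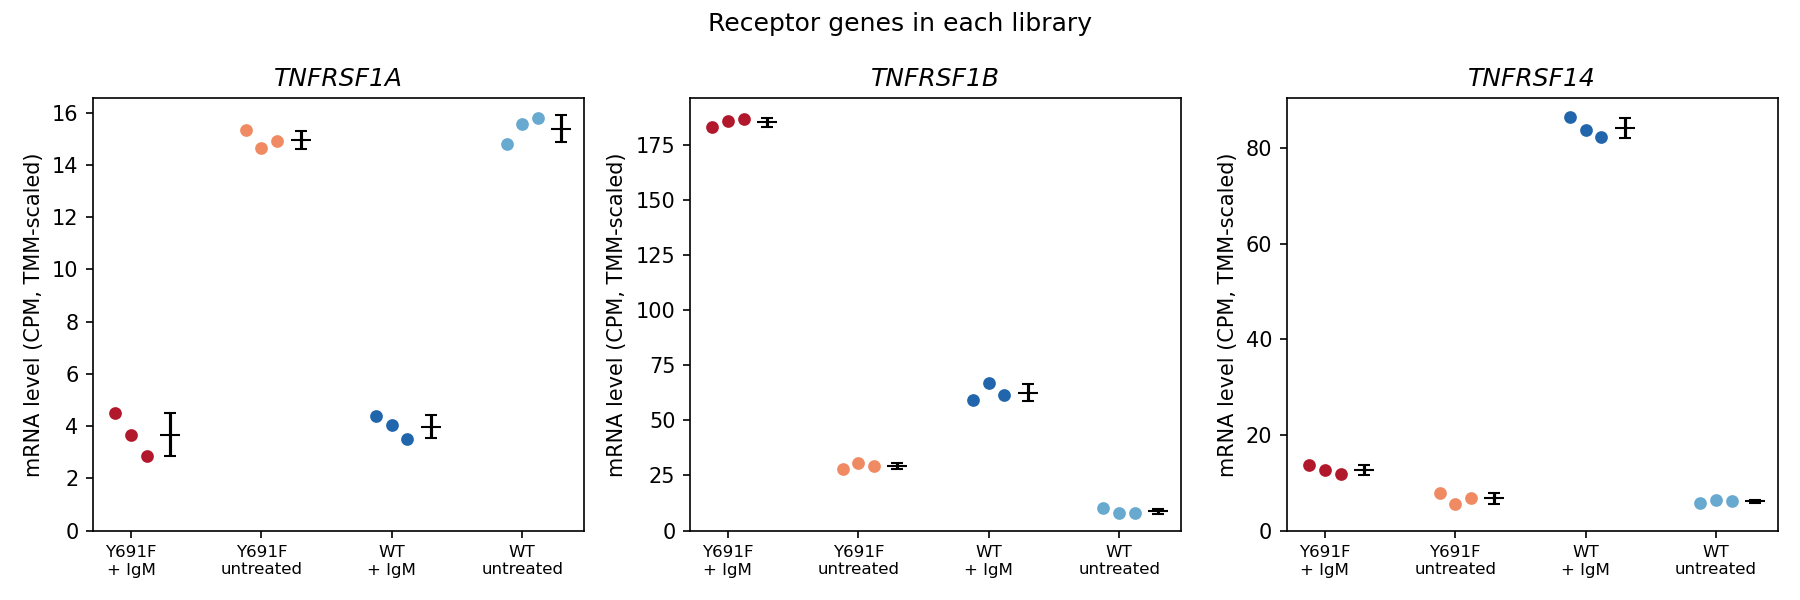
Level of TNFRSF1A, TNFRSF1B and TNFRSF14 in each library (y axis, CPM on TMM-scaled library totals, from 0) by group (x axis); each point is a library and the black bars are the mean ± SD of 3 libraries. TNFRSF14 stands at 82.3 to 86.4 CPM in WT with IgM and at 11.7 to 13.7 CPM in Y691F with IgM, while TNFRSF1B is highest in Y691F with IgM.

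Among 15 other ligands of the TNF superfamily, 7 were tested. For Y691F against WT with IgM, 2 were called higher and 4 lower, with a median of -0.41 beside -0.0049 over all tested genes. Of all tested genes, 21.9% were called higher and 20.2% lower. TNFSF8, the CD30 ligand, moved against TNF and LTA: it averaged 15.1 ± 2.20 CPM in Y691F with IgM and 3.79 ± 0.344 CPM in WT with IgM (log2 1.99, SE 0.113, adjusted p = 3.24e-27). CD70, the CD27 ligand, averaged 33.9 ± 2.40 CPM in Y691F with IgM and 44.9 ± 1.38 CPM in WT with IgM (-0.41, adjusted p = 9.09e-09), and TNFSF9, the 4-1BB ligand, 12.2 ± 1.09 and 17.8 ± 1.15 CPM in the same order (-0.54, adjusted p = 8.28e-08). CD70 and TNFSF9 rose with IgM in both forms, unlike TNF and LTA. In the interaction 1 of 7 ligands was called higher and 2 lower, beside 14.7% and 11.0% of all tested genes.

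Genes on the path from the TNF and lymphotoxin receptors gave 7 of 23 higher and 5 lower for Y691F against WT with IgM, with a median of 0.059. Of all tested genes, 21.9% were called higher and 20.2% lower there. In the interaction 2 were higher and 4 lower, beside 14.7% and 11.0% of all tested genes. The median there was -0.012, beside 0.0069 over all genes. TNFAIP3 encodes A20, a ubiquitin-editing enzyme that restrains NF-kB signalling downstream of these receptors, and it averaged 72.6 ± 1.44 CPM in Y691F with IgM and 147 ± 3.61 CPM in WT with IgM (log2 -1.01, SE 0.0393, adjusted p = 6.91e-39). Of 8 genes for shedding and processing of TNF, 7 were tested. ADAM17, the sheddase of membrane TNF, averaged 50.8 ± 2.46 CPM in Y691F with IgM and 58.3 ± 1.16 CPM in WT with IgM (-0.20, adjusted p = 3.61e-04). RHBDF2, which encodes iRhom2, a partner of ADAM17, fell with IgM by 1.43 in Y691F and by 1.47 in WT on the log2 scale. For Y691F against WT with IgM, 1 of these 7 was called higher and 2 lower, beside the same 21.9% and 20.2% of all tested genes.

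Lists of genes for proteins reported to bind TNF mRNA or the promoters of the locus were measured as mRNA. For Y691F against WT with IgM, 21.9% of all tested genes were called higher and 20.2% lower, to set beside the counts that follow. Of 12 genes for RNA-binding proteins, 3 were called higher and 6 lower for Y691F against WT with IgM (median -0.041), and RC3H2 itself, with or without transgene reads, is 1 of the higher ones. ZC3H12A, which encodes Regnase-1, an endonuclease that cuts stem-loops like those Roquin binds, averaged 51.3 ± 1.83 CPM in Y691F with IgM and 129 ± 2.22 CPM in WT with IgM (log2 -1.33, adjusted p = 3.51e-46). Untreated it averaged 45.9 ± 0.372 CPM in Y691F and 84.2 ± 1.25 CPM in WT (-0.88, adjusted p = 2.15e-32). ZFP36, which encodes tristetraprolin, a decay factor of AU-rich mRNAs, rose with IgM by 2.12 in Y691F and by 2.00 in WT. Of 17 transcription factors, 5 were called higher and 7 lower for Y691F against WT with IgM (median -0.038). EGR1, an early response gene of the B cell receptor, had the same signs as TNF and LTA in that comparison and in the untreated one: it averaged 334 ± 10.7 CPM in Y691F with IgM and 18.2 ± 2.06 CPM in Y691F untreated, against 716 ± 11.9 CPM in WT with IgM and 7.43 ± 0.540 CPM in WT untreated. It rose with IgM in both forms, by 4.20 in Y691F and by 6.59 in WT. JUN averaged 3.88 ± 0.228 CPM in Y691F with IgM and 8.87 ± 0.496 CPM in WT with IgM (-1.19, adjusted p = 1.18e-13). NFKB1, a subunit gene of NF-kB, was lower in Y691F with IgM by 0.40 on the log2 scale (log2 -0.40, adjusted p = 1.87e-22).

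For Y691F against WT untreated, 2 of 7 other ligands were called higher and 1 lower, 8 of 23 signalling genes higher and 4 lower, and 1 of 7 shedding genes, ADAM10, higher. Of the 12 RNA-binding proteins 4 were called higher and 4 lower, and of the 17 transcription factors 6 higher and 4 lower. In this comparison 15.1% of all tested genes were called higher and 16.1% lower. LITAF, named for its reported action on the TNF promoter, averaged 28.6 ± 0.743 CPM in untreated Y691F and 16.4 ± 0.567 CPM in untreated WT (log2 0.80, adjusted p = 1.63e-19). With IgM, 13 of 17 transcription factors were called higher and 4 lower in Y691F, beside 37.1% and 38.7% of all tested genes. In WT 12 were called higher and 4 lower, beside 38.4% and 38.5%. Of the RNA-binding proteins, IgM gave 8 of 12 higher and 2 lower in Y691F, and 8 higher and 3 lower in WT. In the interaction, 5 transcription factors were called higher and 7 lower, and 1 RNA-binding protein higher and 4 lower. Over all tested genes the interaction was called higher for 14.7% and lower for 11.0%.

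The genes with patterns most like the members were found over the 4 group means of log2 CPM, each gene centred on its own mean, among 11214 named genes of at least 1 CPM on average, by the root-mean-square difference. The closest to TNF were CHCHD6 at 0.138, ARHGAP25 at 0.241, C3orf33 at 0.269, PDGFD at 0.272 and LTA at 0.278. The closest to LTA were DNAJB1 at 0.185, ZSCAN2 at 0.229, CHCHD6 at 0.237, TNF at 0.278 and ABLIM1 at 0.299. LTA was thus at place 5 of the list for TNF, and TNF at place 4 of the list for LTA, while LTB was at place 10074 for TNF and at place 10228 for LTA. The closest to LTB were LINC00957 at 0.0516, SYBU at 0.0641, CCDC24 at 0.0732, SEPSECS-AS1 at 0.0777 and TNFAIP8L1 at 0.0854. These are distances over 4 points and carry no test.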

How the data were processed

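PolyA+ RNA of 12 cultures of U-2932 cells was sequenced by a strand-specific method, per the labels' protocols. STAR 2.5.0b, DESeq2 and GRCh38 are named in the submitters' processing notes; the sources used here do not give the read counter, its strand setting or the annotation release. Per the file headers, the deposited table holds the authors' whole-number counts and RPKM values per gene and library. RPKM was used for levels between genes, with their ratios and shares, and for the summed level of the 3 genes per group. It was not scaled with TMM.

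Counts were scaled with TMM and tested on all 12 libraries in R 4.3.3 with edgeR 4.0.16 (quasi-likelihood, robust, filterByExpr, 1 coefficient per group). Benjamini-Hochberg adjustment ran over the 15112 genes tested, and an adjusted p under 0.05 made a call. The SE is approximate, the size of the log2 change over the root of its F statistic, and the test was tried on simulated data. Count ratios were compared by exact permutation tests. Elements were searched in GENCODE release 29 transcripts, taking the transcript with the longest coding sequence, and in RefSeq promoter windows; all 3 genes matched. The 3′ UTR search was added after the design was fixed, with the results of these data known.

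The members, lists and tests were chosen with earlier results of these data known. From each list up to 4 genes with the smallest adjusted p in a comparison could be named, any tested neighbour, all receptors, and the 5 genes most like each member. Some listed genes are not reported here. Other settings were DESeq2 1.42.0 size factors and Wald test, limma 3.58.1 voom, library totals, 2 other filters, fewer libraries and a replicate block.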

Additional observations from a re-analysis of the deposited data

Results flagged for a closer look

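The IgM response differed between Y691F and WT, by the test of the interaction, for all 3 members and for other genes described above. The response in Y691F minus that in WT was -2.03 for TNF (adjusted p = 1.28e-38) and -2.10 for LTA (adjusted p = 5.29e-43), both of which fell with IgM in Y691F and rose in WT, with no overlap of libraries in either form. For LTB it was -0.62 (adjusted p = 2.14e-09), with a fall in both forms. For the receptor gene TNFRSF14 it was -2.87 (adjusted p = 5.11e-33), with a rise in both forms that was larger in WT. For the neighbour PRRC2A it was 0.13 (adjusted p = 0.00521), with 1115 ± 13.4 CPM with IgM and 835 ± 25.6 CPM untreated in Y691F, and 1069.8 ± 19.6 CPM with IgM and 879 ± 20.3 CPM untreated in WT (SD, n = 3).

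Among the listed genes given with values above, the response in Y691F minus that in WT was called for these. Among the transcription factors it was -2.39 for EGR1 (adjusted p = 4.27e-39), -1.61 for JUN (adjusted p = 3.36e-08), -0.84 for LITAF (adjusted p = 1.66e-15) and -0.38 for NFKB1 (adjusted p = 4.90e-12). Among the genes for RNA-binding proteins it was -0.45 for ZC3H12A (adjusted p = 7.46e-10) and -0.15 for RC3H2 (adjusted p = 0.00914). It was -1.11 for TNFAIP3 (adjusted p = 3.66e-27), -0.28 for ADAM17 (adjusted p = 0.00156) and -0.17 for ADAM10 (adjusted p = 0.0312). Among the other ligands it was 1.43 for TNFSF8 (adjusted p = 4.31e-15), -0.67 for TNFSF9 (adjusted p = 5.47e-05) and -0.44 for CD70 (adjusted p = 8.12e-04). For TRAC, counted among the T cell markers, it was 0.46 (adjusted p = 0.00210).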

How the results depend on the processing

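The 15 member results (3 genes in 5 comparisons) kept their direction and their side of the threshold in 297 of 297 values under the other settings. For comparisons between a pair of groups, these values include fits that left out a library of another group. Such fits could hardly move the change, so the count overstates how much was tried. Over all settings, the change for Y691F against WT with IgM ran from -1.41 to -1.32 for TNF, -1.79 to -1.72 for LTA and -0.34 to -0.30 for LTB, with adjusted p of at most 0.00139. The interaction ran from -2.08 to -1.99 for TNF, -2.13 to -2.06 for LTA and -0.66 to -0.59 for LTB. Library totals alone gave the largest falls with IgM in Y691F, -0.96 for TNF and -0.58 for LTA, and the smallest rises in WT, 1.11 and 1.56. The counts of genes called stayed within 1.5 times those given in 99 of 99 values. Same-numbered replicates did not deviate together (18 pairs, r from -0.062 to 0.030), and with the replicate number as a block the interaction was -2.03 for TNF, -2.09 for LTA and -0.62 for LTB. The within-library ratios cannot pass an exact test with 3 against 3 libraries, so only their separation is read. LTBR and LST1 are limited by depth.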
